A study of Rattus norvegicus with 9 samples.

Results

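The mitosis and chromosome segregation genes described here are 32 genes of late G2 and M phase, the spindle, the kinetochore and cytokinesis, out of 40154 gene rows measured by RNA sequencing in rat liver. They were chosen by name, for their known roles, and with earlier results of these data known. They are read in 3 groups of Sprague-Dawley rats, wild type in genotype and 5 months of age, with 3 libraries in each group. HepLPC livers came from rats with cirrhosis that were injected with HepLPCs, which are hepatocyte-derived liver progenitor-like cells from rat. PBS livers came from rats with cirrhosis injected with phosphate-buffered saline (PBS). Normal livers came from rats that had no cells and no carbon tetrachloride (CCl4), which is a toxin that scars the liver. The RNA was from whole tissue, so that injected cells, host hepatocytes and every other liver cell type were measured together, and fewer cells of a type and less RNA per cell cannot be told apart. Nothing in the labels says that the numbered replicates are different animals, and the p-values below therefore speak of the spread among these libraries, part of it possibly technical.

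Entry into mitosis is driven by the kinase Cdk1 bound to its cyclins, after which chromosomes condense, attach through kinetochores to a spindle of microtubules, and are held by a checkpoint until every chromosome is attached. The checkpoint then releases the anaphase-promoting complex, sister chromatids separate, and a central spindle positions the ring that divides the cell. In the adult liver few cells divide, and in injured liver hepatocytes, duct cells, macrophages and fibrogenic cells can all enter the cycle, so transcripts of these genes are used as a sign of dividing cells without showing which type divides. The roles given below are those known from mammalian cells.

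Transcripts of this machinery were higher in PBS than in Normal livers, by 1.75 to 18.7 times from gene to gene as a ratio of means, and at levels in between in HepLPC livers. In Normal livers 30 of the 32 genes averaged under 1 RPKM, Cks2 and Birc5 being the others. Levels are in RPKM, a read count scaled to gene length and library size. Comparisons of level between genes are limited by the departure of PBS replicate 1 and HepLPC replicate 2 by gene length, described below. The 32 genes summed to 32.3, 45.0 and 41.4 RPKM in HepLPC replicates 1 to 3, to 70.0, 70.3 and 53.0 RPKM in PBS replicates 1 to 3, and to 15.3, 13.8 and 20.5 RPKM in Normal replicates 1 to 3. The 3 groups did not overlap in this sum. The same order without overlap was found in other lists described below. These were the other mitosis genes, the cohesin and anaphase-promoting complex subunits, and the stellate and myofibroblast markers. The genes are arranged below in 8 roles. The highest HepLPC sum lay below the lowest PBS sum in 5 of the 8 roles, and the lowest HepLPC sum lay above the highest Normal sum in all 8.

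**Figure D1:**
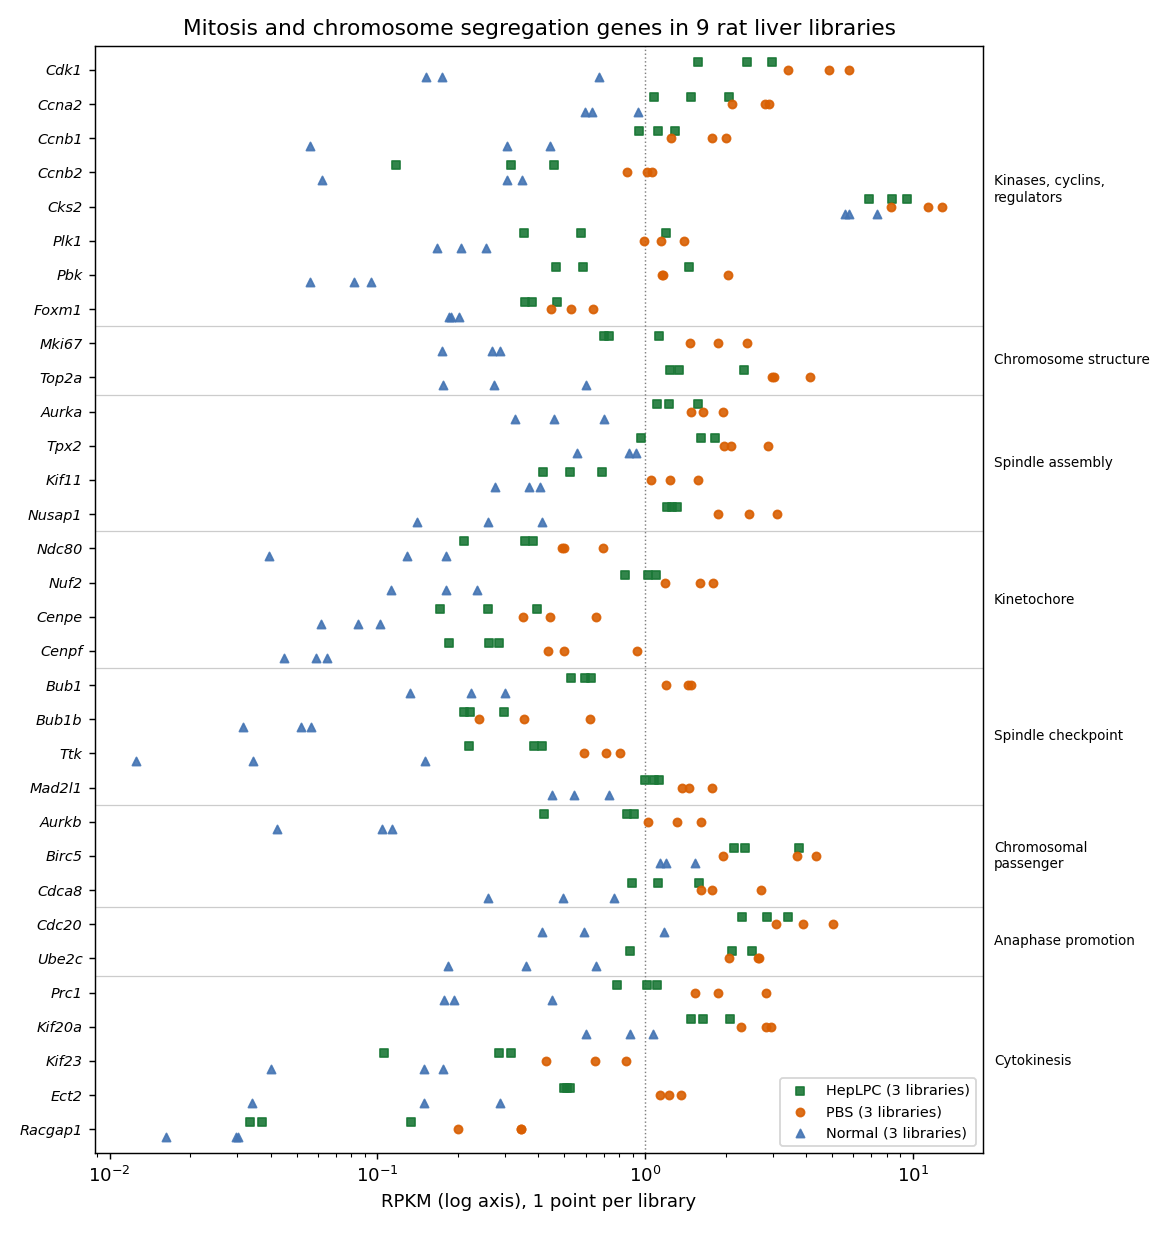
RPKM (log axis) of each of the 32 genes in each of the 9 libraries, arranged by role, with HepLPC as squares, PBS as circles and Normal as triangles; the dotted line marks 1 RPKM. PBS points lie to the right of all Normal points in each of the 32 rows, and HepLPC points lie mostly between them.

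These are low transcripts, and few reads stand behind each value. The whole reads recovered from the RPKM values ranged from 17.4 to 19.3 megareads (M) per library in the HepLPC group, from 17.8 to 20.6 M in the PBS group and from 19.9 to 21.8 M in the Normal group. The 32 genes together took 1519, 1913 and 1825 of them in the HepLPC libraries, 2984, 4016 and 2930 in the PBS libraries and 620, 577 and 934 in the Normal libraries. A single gene had between 1 and 507 reads in a library, the highest being Mki67. Under 10 reads stood behind 6 of the 96 values in HepLPC livers, 0 of 96 in PBS livers and 32 of 96 in Normal livers, so the Normal levels of single genes are the least precise. For 11 of the 32 genes (Cdk1, Ccnb2, Cks2, Pbk, Mki67, Aurka, Tpx2, Kif11, Nusap1, Ube2c and Prc1) the RefSeq gene table names at least 1 further copy (a pseudogene or a like gene). No source used here says how shared reads were assigned, so those values are uncertain to that extent.

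Differences were tested with limma on log2(RPKM + 1), a scale that understates the change of genes under about 1 RPKM, with p-values adjusted (Benjamini-Hochberg) over all genes tested. A filter of at least 1 RPKM in 3 libraries kept 11124 genes, 23 of the 32 among them. For 13 of these 23, being tested already required high PBS values. They (Ccnb1, Plk1, Pbk, Mki67, Tpx2, Kif11, Nuf2, Bub1, Aurkb, Cdca8, Ube2c, Prc1 and Ect2) reached the filter only through the PBS libraries. The 9 genes under it (Ccnb2, Foxm1, Ndc80, Cenpe, Cenpf, Bub1b, Ttk, Kif23 and Racgap1) were tested in a second fit of all 20959 genes above 0 in 3 libraries, which also holds the other 23. In PBS against Normal, 31 of the 32 genes rose in that second fit, where 8.88% of all genes did, and Birc5 missed the threshold (adjusted p = 0.0622). The 13 genes that reached the filter only through PBS libraries were all among the 31. Among filtered genes, 23 of 23 rose, against 10.4% of all filtered genes. In all 32 genes the lowest PBS value exceeded the highest Normal value, as it did for 28.6% of all genes. The median log2 difference of the 32 was 0.93, against 0.09 for all 20959 genes. The filtered genes had a median of 0.18 between these groups before any rescaling, and after rescaling by the median of ratios, which brought it to -0.04, the differences of all 23 filtered genes were still above 0, with a median of 0.89. Quantile normalization left 12 of the 23 called, against 4.42% of filtered genes that rose there.

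In HepLPC against PBS, all 32 differences were below 0 as scaled by the authors, while under quantile normalization those of Aurka, Birc5 and Foxm1 lay just above 0 (log2 differences of 0.01, 0.03 and 0.02). Of the 23 filtered genes 2 fell, Bub1 and Ect2, against 2.93% of all filtered genes, and of all 32 in the second fit 5 fell, Ccnb2, Kif11, Bub1, Ect2 and Racgap1, against 2.52% of genes. Bub1 and Ect2 reached the filter only through the PBS libraries, so their filtered test already required high PBS values. The second fit did not require this. Every HepLPC value lay below every PBS value in 21 of the 32 genes, against 15.6% of all genes. At an unadjusted p under 0.05, 22 of the 32 were lower in HepLPC livers, against 14.7% of all genes. The median difference was -0.39, against -0.07 for all genes. The Ect2 call was lost whichever of the 9 libraries was left out, and the Bub1 call whichever of 8 was, PBS replicate 1 being the exception. Between 0 and 3 of the 23 filtered genes were called with 1 library left out.

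In HepLPC against Normal, 0 of the 23 and 0 of the 32 genes were called, and limma with voom weights on the recovered reads also called 0. Only 0.0809% of filtered genes and 0.0143% of genes in the second fit were called at all in this comparison. At an unadjusted p under 0.05, 27 of the 32 genes were higher in HepLPC livers, against 5.68% of all genes. Every HepLPC value lay above every Normal value in 29 of the 32, against 10.6% of all genes, the exceptions being Ccnb2, Cks2 and Kif23. Each pair of comparisons shares a group of libraries, so the values are set side by side and are not independent.

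**Figure D2:**
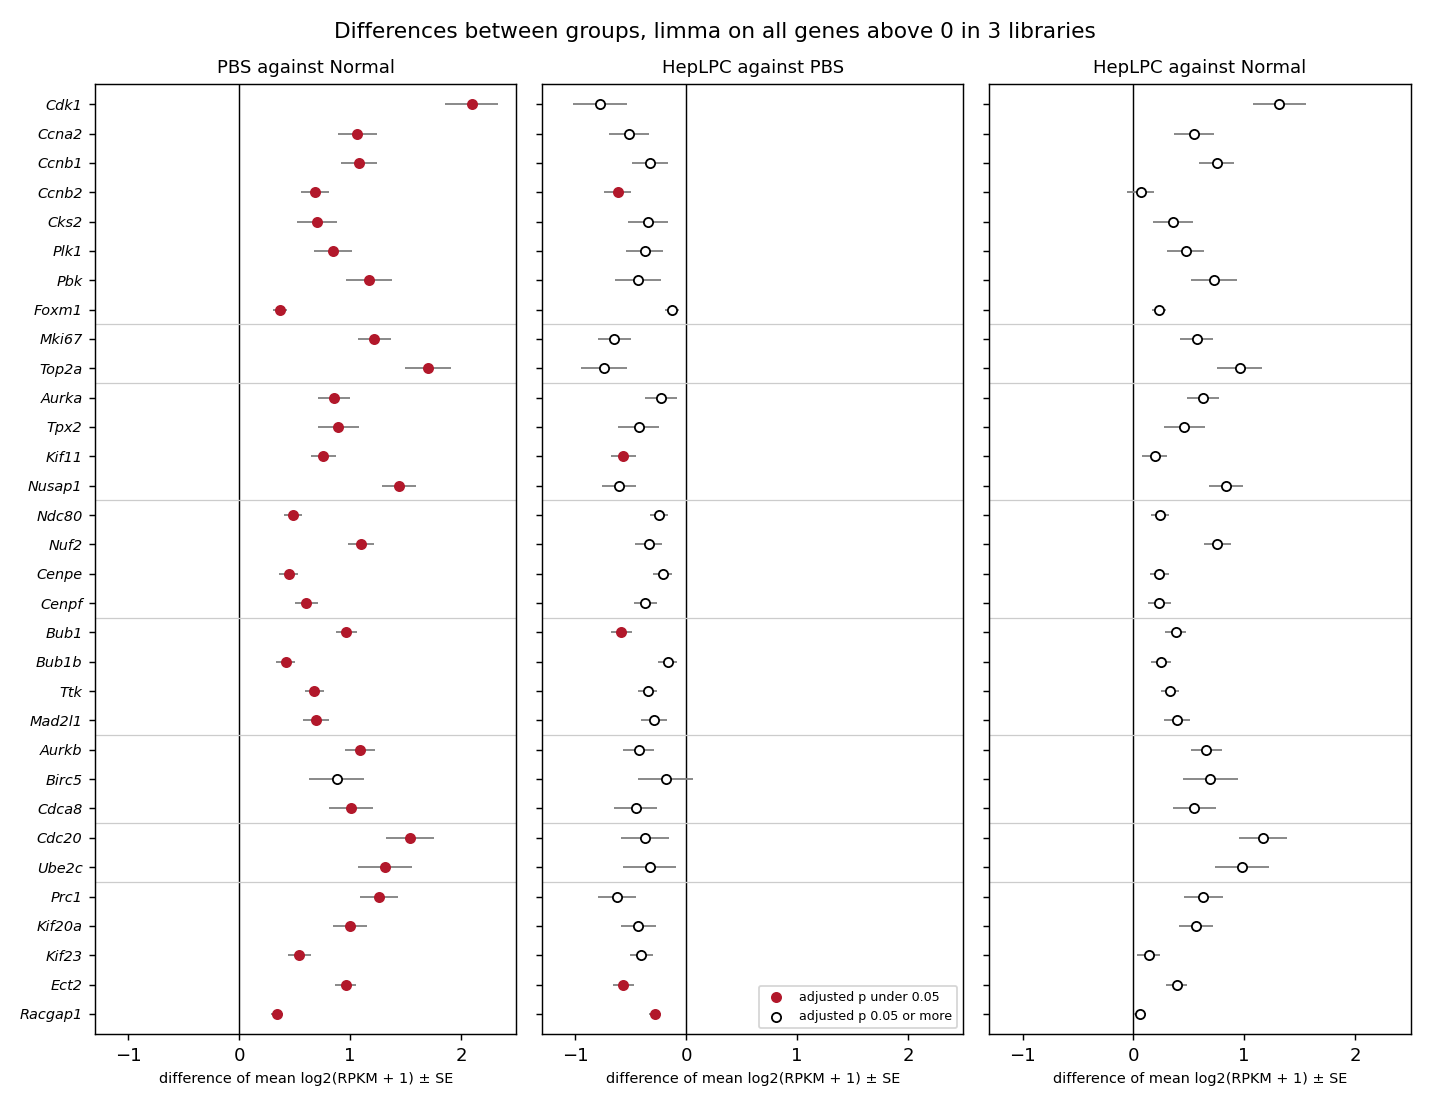
Difference of mean log2(RPKM + 1) for the 32 genes in 3 comparisons, with bars of 1 SE from the limma fit of 20959 genes and filled points at an adjusted p under 0.05. In PBS against Normal 31 of 32 points are filled and to the right of 0; in HepLPC against PBS all 32 lie left of 0 (under quantile normalization Aurka, Birc5 and Foxm1 lie just right of it) and 5 are filled; in HepLPC against Normal 0 are filled.

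The promoters of these genes are shown with the short sequences by which cell cycle promoters are known. Genes of G2 and M phase commonly carry a cell cycle genes homology region (CHR), typically the letters TTTGAA or in some promoters the letters TTTAAA, bound by the DREAM repressor complex and by the B-Myb and FOXM1 activators, and upstream of it CCAAT boxes bound by NF-Y. RefSeq promoter windows of the rat assembly GRCr8, running 250 bases before to 50 bases after the gene start, were matched by symbol for 25 of the 32 genes. Both strands were searched, and the TTTAAA form reads the same on either strand. A CHR-like match, meaning either form, was in 25 of the 25 windows (100%), against 26.4% of 21851 windows of protein-coding genes. The form TTTGAA was in 76% of the members' windows, against 17.1% of all windows. The form TTTAAA was in 40% of the members' windows, against 12.6% of all windows. CCAAT letters were in 76% of the members' windows and 38% of all windows, and stood at 2 or more places in 56% of the members' windows and 12.2% of all windows. A CHR-like match began within 50 bases of the start in 76% of the members' windows and in 7.7% of all windows. Such a match is a run of letters and not a bound site. The genes were chosen by name as genes of G2 and M phase, the class in which these letters are common. Any link of the letters to the levels was not tested.

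The 6 windows that follow belong to the marker genes Cdk1 and Mki67, the mitotic cyclin pair Ccnb1 and Ccnb2 that differ in their levels below, and the called genes Bub1 and Ect2. Capitals mark both CHR-like forms and the CCAAT letters, which read ATTGG where they lie on the other strand. Positions count back from the gene start. Cdk1 is at chr20:19265043-19265342 (plus strand), Mki67 at chr1:199952544-199952843 (minus strand), Ccnb1 at chr2:33655176-33655475 (minus strand), Ccnb2 at chr8:79981609-79981908 (minus strand), Bub1 at chr3:135504872-135505171 (minus strand) and Ect2 at chr2:111966577-111966876 (minus strand).
Cdk1: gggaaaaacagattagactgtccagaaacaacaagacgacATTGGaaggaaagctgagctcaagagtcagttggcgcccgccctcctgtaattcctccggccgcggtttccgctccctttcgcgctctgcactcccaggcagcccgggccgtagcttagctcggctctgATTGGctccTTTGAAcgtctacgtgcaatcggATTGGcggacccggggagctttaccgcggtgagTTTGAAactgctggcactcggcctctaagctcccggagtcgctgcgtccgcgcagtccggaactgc
Mki67: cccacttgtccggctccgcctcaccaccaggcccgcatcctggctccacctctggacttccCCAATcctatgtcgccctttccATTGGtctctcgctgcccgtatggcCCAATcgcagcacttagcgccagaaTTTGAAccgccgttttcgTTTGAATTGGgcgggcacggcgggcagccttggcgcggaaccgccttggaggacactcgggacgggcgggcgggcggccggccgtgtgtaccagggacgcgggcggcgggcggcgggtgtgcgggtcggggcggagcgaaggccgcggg
Ccnb1: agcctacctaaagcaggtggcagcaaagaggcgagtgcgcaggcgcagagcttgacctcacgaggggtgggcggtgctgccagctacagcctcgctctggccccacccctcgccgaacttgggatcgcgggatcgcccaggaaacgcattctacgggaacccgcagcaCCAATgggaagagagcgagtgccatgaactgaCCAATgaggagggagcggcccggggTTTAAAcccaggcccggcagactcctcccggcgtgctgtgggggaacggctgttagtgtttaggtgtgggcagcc
Ccnb2: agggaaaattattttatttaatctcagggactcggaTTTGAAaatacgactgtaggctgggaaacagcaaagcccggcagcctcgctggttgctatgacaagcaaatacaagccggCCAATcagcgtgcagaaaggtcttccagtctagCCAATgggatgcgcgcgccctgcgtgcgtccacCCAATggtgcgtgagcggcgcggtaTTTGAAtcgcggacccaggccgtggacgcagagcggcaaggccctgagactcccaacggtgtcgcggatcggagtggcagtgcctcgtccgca
Bub1: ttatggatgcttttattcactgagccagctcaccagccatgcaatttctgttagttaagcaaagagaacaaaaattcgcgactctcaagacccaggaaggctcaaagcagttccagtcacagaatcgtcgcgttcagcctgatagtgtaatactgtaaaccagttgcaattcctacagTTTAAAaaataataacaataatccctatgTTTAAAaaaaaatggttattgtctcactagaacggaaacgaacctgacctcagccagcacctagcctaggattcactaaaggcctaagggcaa
Ect2: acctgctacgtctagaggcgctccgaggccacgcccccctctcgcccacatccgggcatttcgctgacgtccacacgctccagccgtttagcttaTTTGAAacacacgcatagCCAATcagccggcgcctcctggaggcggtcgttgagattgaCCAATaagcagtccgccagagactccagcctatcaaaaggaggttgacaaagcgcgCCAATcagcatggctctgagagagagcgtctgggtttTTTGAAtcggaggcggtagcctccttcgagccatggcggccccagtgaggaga

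Cdk1 has TTTGAA beginning 72 and 16 bases upstream of the start, with CCAAT letters 210, 81 and 49 bases upstream. Mki67 has TTTGAA 117 and 99 bases upstream, where the second overlaps a CCAAT on the other strand. Ccnb1 and Ccnb2 share the layout of CCAAT letters followed nearer the start by a CHR-like run, TTTAAA 25 bases upstream in Ccnb1 and TTTGAA 43 bases upstream in Ccnb2, which has a further TTTGAA 214 bases upstream, before its CCAAT letters. Bub1 has TTTAAA 72 and 43 bases upstream and no CCAAT letters in its window. Ect2 has TTTGAA 155 and 3 bases upstream and CCAAT letters at 3 places.

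Among the kinases, cyclins and their regulators, Cdk1, the kinase that starts mitosis, showed the highest log2 difference of the 32 genes in PBS against Normal livers. Its level was 1.57, 2.99 and 2.40 RPKM in HepLPC livers, 5.80, 4.87 and 3.43 RPKM in PBS livers and 0.152, 0.174 and 0.673 RPKM in Normal livers, in the order of replicates 1 to 3 as in all values below. The 3 groups did not overlap, and the PBS mean was 14.1 times the Normal mean (log2 difference 2.10 ± 0.23, adjusted p = 0.000735). Against PBS livers the HepLPC difference was -0.78 ± 0.23 and did not pass (adjusted p = 0.112). Cks2, the small subunit that helps cyclin-dependent kinases hold their substrates, had the highest level of the 32. It measured 6.89, 9.56 and 8.39 RPKM in HepLPC livers, 12.9, 11.4 and 8.30 RPKM in PBS livers and 5.78, 5.59 and 7.33 RPKM in Normal livers. HepLPC values overlapped both other groups, while PBS values lay above Normal ones (log2 difference 0.70 ± 0.18, adjusted p = 0.0382), a call lost in 10 of 20 alternative settings. Leaving out 1 library moved the Cks2 adjusted p between 0.0279 and 0.140, and the call was lost without any of the Normal replicates, PBS replicates 1 or 2 or HepLPC replicate 3.

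The B-type cyclins, the partners of Cdk1 in mitosis, are a pair singled out after their values were seen. Ccnb1 measured 0.949, 1.29 and 1.12 RPKM in HepLPC livers, 2.0, 1.78 and 1.25 RPKM in PBS livers and 0.306, 0.0561 and 0.441 RPKM in Normal livers. Ccnb2 measured 0.457, 0.316 and 0.117 RPKM in HepLPC livers, 1.07, 1.02 and 0.859 RPKM in PBS livers and 0.306, 0.0623 and 0.348 RPKM in Normal livers. The Ccnb1 mean was 1.12 ± 0.173 RPKM in HepLPC, 1.68 ± 0.386 RPKM in PBS and 0.268 ± 0.195 RPKM in Normal livers (SD, n = 3 each). The Ccnb2 mean was 0.296 ± 0.171 RPKM in HepLPC, 0.982 ± 0.109 RPKM in PBS and 0.239 ± 0.154 RPKM in Normal livers, so that the cyclins were at like levels in Normal livers and furthest apart in HepLPC livers. Few reads stand behind this, 13, 9 and 3 for Ccnb2 in HepLPC livers and 9, 2 and 11 in Normal livers. Ccnb1 had 4 reads in Normal replicate 2. The genes also differ in recovered length, 3273 bases for Ccnb1 and 1473 bases for Ccnb2. PBS replicate 1 and HepLPC replicate 2 departed by gene length, as described below. Ccnb2 fell in HepLPC against PBS livers (log2 difference -0.62 ± 0.12, adjusted p = 0.0395 in the second fit), with HepLPC and Normal values overlapping. The Ccnb1 groups HepLPC and PBS overlapped (log2 difference -0.33 ± 0.16, adjusted p = 0.369). Both cyclins rose in PBS against Normal livers (log2 difference 1.08 ± 0.16, adjusted p = 0.00328 for Ccnb1, and log2 difference 0.68 ± 0.12, adjusted p = 0.0127 for Ccnb2 in the second fit). The difference between the cyclins was not tested, and the Ccnb2 call in HepLPC livers was lost in 16 of 18 alternative settings. With 1 library left out its adjusted p lay between 0.0486 and 0.103, passing only without Normal replicate 2, and the Ccnb2 rise in PBS livers missed the threshold without that library (adjusted p = 0.0502).

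Foxm1, a transcription factor that activates many of the genes described here, was itself low. It measured 0.379, 0.357 and 0.469 RPKM in HepLPC livers, 0.446, 0.640 and 0.530 RPKM in PBS livers and 0.189, 0.202 and 0.185 RPKM in Normal livers. PBS values were above Normal ones, and the rise was among the smallest on this scale (log2 difference 0.37 ± 0.06, adjusted p = 0.0106 in the second fit). HepLPC values ran into the PBS range and lay above all Normal values. Ccna2, the cyclin of S phase and early mitosis, ranged over 1.08 to 2.06 RPKM in HepLPC, 2.12 to 2.90 RPKM in PBS and 0.595 to 0.945 RPKM in Normal livers, with no overlap. Plk1, a kinase of centrosome maturation and mitotic entry, ranged over 0.354 to 1.20 RPKM in HepLPC, 0.993 to 1.39 RPKM in PBS and 0.167 to 0.255 RPKM in Normal livers. Pbk, a mitotic kinase, ranged over 0.465 to 1.46 RPKM in HepLPC, 1.16 to 2.04 RPKM in PBS and 0.0562 to 0.0951 RPKM in Normal livers. For Plk1 and Pbk, HepLPC replicate 2 lay within the PBS range and the other 2 HepLPC libraries below it. All 3 rose in PBS against Normal livers (log2 difference 1.07 ± 0.17, adjusted p = 0.00454 for Ccna2, adjusted p = 0.0166 for Plk1 and adjusted p = 0.00826 for Pbk). The Plk1 call was lost without any of the Normal replicates or PBS replicate 2, at an adjusted p of up to 0.0679, and the Foxm1 call without Normal replicate 3 (adjusted p = 0.0505).

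Both genes of chromosome structure rose in PBS against Normal livers. Mki67, the source of the Ki-67 antigen that coats mitotic chromosomes and marks cycling cells, measured 0.732, 0.701 and 1.13 RPKM in HepLPC livers, 1.47, 2.40 and 1.88 RPKM in PBS livers and 0.269, 0.175 and 0.286 RPKM in Normal livers. The 3 groups were apart, the PBS mean being 7.87 times the Normal mean (log2 difference 1.22 ± 0.15, adjusted p = 0.00136). Mki67 reached the filter only through the PBS libraries. In the second fit its adjusted p was 0.0025 in PBS against Normal and 0.0598 in HepLPC against PBS. The HepLPC mean was 0.446 times the PBS mean, just short of the threshold (log2 difference -0.65 ± 0.15, adjusted p = 0.0569), and it passed in 3 of 20 alternative settings, among them the fit without PBS replicate 1 (adjusted p = 0.0355). Top2a, the topoisomerase that untangles sister chromatids, measured 1.24, 1.34 and 2.35 RPKM in HepLPC livers, 3.02, 4.13 and 3.0 RPKM in PBS livers and 0.273, 0.175 and 0.600 RPKM in Normal livers. Its groups were apart as well (log2 difference 1.70 ± 0.20, adjusted p = 0.000970 for PBS against Normal, and log2 difference -0.74 ± 0.20, adjusted p = 0.0809 for HepLPC against PBS). Without HepLPC replicate 3, its highest HepLPC library, Top2a passed in HepLPC against PBS (adjusted p = 0.0423).

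The 4 spindle assembly genes all rose in PBS against Normal livers. Tpx2, which nucleates microtubules near chromosomes and activates Aurora A, measured 1.63, 0.965 and 1.82 RPKM in HepLPC livers, 2.10, 2.89 and 1.97 RPKM in PBS livers and 0.922, 0.558 and 0.870 RPKM in Normal livers. HepLPC values lay below every PBS value and above every Normal value, though HepLPC replicate 2 lay close to Normal replicate 1 (log2 difference 0.89 ± 0.18, adjusted p = 0.0127 for PBS against Normal). Nusap1, a microtubule-bundling spindle protein, measured 1.21, 1.27 and 1.32 RPKM in HepLPC livers, 3.11, 2.46 and 1.87 RPKM in PBS livers and 0.141, 0.258 and 0.412 RPKM in Normal livers. Its HepLPC libraries were close together and apart from both other groups (log2 difference 1.44 ± 0.15, adjusted p = 0.000670 for PBS against Normal, and log2 difference -0.61 ± 0.15, adjusted p = 0.0727 for HepLPC against PBS). Kif11, the motor that pushes spindle poles apart, ranged over 0.416 to 0.692 RPKM in HepLPC, 1.05 to 1.58 RPKM in PBS and 0.276 to 0.404 RPKM in Normal livers. It fell in HepLPC against PBS livers in the second fit (log2 difference -0.57 ± 0.11, adjusted p = 0.0402) and not among filtered genes (adjusted p = 0.0558). Aurka, the Aurora A kinase of the spindle poles, ranged over 1.11 to 1.58 RPKM in HepLPC, 1.49 to 1.96 RPKM in PBS and 0.328 to 0.702 RPKM in Normal livers, HepLPC replicate 1 falling inside the PBS range (log2 difference 0.86 ± 0.14, adjusted p = 0.00579 for PBS against Normal). The Tpx2 rise missed the threshold without Normal replicate 2 (adjusted p = 0.0595), and the filtered Kif11 value passed in HepLPC against PBS without PBS replicate 1 (adjusted p = 0.0471).

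Of the 4 kinetochore genes, 3 were under the filter, and all 4 rose in PBS against Normal livers in the second fit. Ndc80 and Nuf2 are partners in the complex that grips microtubules. Nuf2 measured 0.841, 1.10 and 1.03 RPKM in HepLPC livers, 1.79, 1.60 and 1.19 RPKM in PBS livers and 0.112, 0.180 and 0.235 RPKM in Normal livers. Ndc80 measured 0.211, 0.355 and 0.383 RPKM in HepLPC livers, 0.699, 0.50 and 0.490 RPKM in PBS livers and 0.129, 0.0395 and 0.180 RPKM in Normal livers. For both, all HepLPC libraries lay below all PBS libraries and above all Normal libraries. In PBS against Normal livers the Nuf2 difference was 1.10 ± 0.13 (adjusted p = 0.00113) and the Ndc80 difference 0.48 ± 0.08 (adjusted p = 0.00900 in the second fit). Cenpe, the kinetochore motor that brings chromosomes to the spindle equator, measured 0.260, 0.171 and 0.394 RPKM in HepLPC livers, 0.350, 0.653 and 0.440 RPKM in PBS livers and 0.0614, 0.0843 and 0.103 RPKM in Normal livers. Cenpf, a large outer kinetochore protein, measured 0.185, 0.262 and 0.285 RPKM in HepLPC livers, 0.435, 0.934 and 0.498 RPKM in PBS livers and 0.0448, 0.0592 and 0.0648 RPKM in Normal livers. Cenpf kept the 3 groups apart, while for Cenpe HepLPC replicate 3 exceeded PBS replicate 1. In HepLPC against PBS livers 0 of the 4 were called in the second fit, where 2.52% of all genes fell. At an unadjusted p under 0.05 all 4 were lower there, against 14.7% of all genes. The Cenpe rise in PBS livers was lost without any of the Normal replicates, at an adjusted p of up to 0.0653, and Cenpf passed in HepLPC against PBS without PBS replicate 1 (adjusted p = 0.0496).

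Among the spindle checkpoint genes, Bub1, a kinase that recruits checkpoint proteins to kinetochores, had the smallest adjusted p of the 32 in HepLPC against PBS livers. It measured 0.530, 0.598 and 0.626 RPKM in HepLPC livers, 1.20, 1.49 and 1.45 RPKM in PBS livers and 0.223, 0.133 and 0.301 RPKM in Normal livers. The HepLPC libraries were close together, and no group overlapped another. HepLPC livers held 0.424 times the PBS mean (log2 difference -0.59 ± 0.12, adjusted p = 0.0326), and PBS livers 6.31 times the Normal mean (log2 difference 0.97 ± 0.12, adjusted p = 0.00118). Bub1 reached the filter only through the PBS libraries, and in the second fit its adjusted p in HepLPC against PBS was 0.017. Mad2l1, the Mad2 protein that blocks the anaphase-promoting complex, measured 1.0, 1.08 and 1.12 RPKM in HepLPC livers, 1.46, 1.37 and 1.77 RPKM in PBS livers and 0.543, 0.449 and 0.732 RPKM in Normal livers. Its groups were apart, with a smaller distance between HepLPC and PBS livers (log2 difference -0.29 ± 0.12, adjusted p = 0.289). Bub1b, the BubR1 partner of Mad2, measured 0.210, 0.222 and 0.298 RPKM in HepLPC livers, 0.241, 0.624 and 0.354 RPKM in PBS livers and 0.0566, 0.0518 and 0.0316 RPKM in Normal livers. Ttk, the Mps1 kinase at the head of the checkpoint, measured 0.219, 0.412 and 0.386 RPKM in HepLPC livers, 0.810, 0.712 and 0.593 RPKM in PBS livers and 0.0125, 0.0343 and 0.151 RPKM in Normal livers. Bub1b in HepLPC replicate 3 exceeded PBS replicate 1, while the Ttk groups did not overlap. Both rose in PBS against Normal livers in the second fit (log2 difference 0.42 ± 0.09, adjusted p = 0.0224 for Bub1b, and log2 difference 0.68 ± 0.08, adjusted p = 0.00255 for Ttk), where Ttk had 1, 3 and 13 reads in the Normal libraries. The Bub1b rise was lost without any of the Normal replicates or PBS replicate 3, at an adjusted p of up to 0.0814. With 1 library left out, the Bub1 adjusted p in HepLPC against PBS lay between 0.0324 and 0.129.

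The chromosomal passenger complex corrects faulty attachments. Birc5, its subunit survivin, measured 2.35, 3.76 and 2.16 RPKM in HepLPC livers, 4.34, 3.69 and 1.96 RPKM in PBS livers and 1.14, 1.20 and 1.54 RPKM in Normal livers. PBS replicate 3 was below all HepLPC libraries, so the HepLPC and PBS values overlapped, and the PBS rise over Normal was the weakest by its p-value (log2 difference 0.88 ± 0.24, adjusted p = 0.0436) and was lost in 12 of 20 alternative settings. With 1 library left out the Birc5 adjusted p lay between 0.0158 and 0.137, and it passed only without PBS replicate 3 or HepLPC replicate 2. Cdca8, the subunit borealin, measured 0.895, 1.12 and 1.60 RPKM in HepLPC livers, 2.70, 1.62 and 1.78 RPKM in PBS livers and 0.496, 0.765 and 0.259 RPKM in Normal livers. Its HepLPC and PBS ranges came within a narrow gap without overlapping (log2 difference 1.01 ± 0.19, adjusted p = 0.0105 for PBS against Normal). Aurkb, the Aurora B kinase of the complex, ranged over 0.421 to 0.911 RPKM in HepLPC, 1.03 to 1.62 RPKM in PBS and 0.0421 to 0.113 RPKM in Normal livers (log2 difference 1.09 ± 0.15, adjusted p = 0.00236 for PBS against Normal).

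Both genes of anaphase promotion rose in PBS against Normal livers. Cdc20, which activates the anaphase-promoting complex, measured 2.31, 3.41 and 2.85 RPKM in HepLPC livers, 5.03, 3.91 and 3.08 RPKM in PBS livers and 0.594, 0.414 and 1.18 RPKM in Normal livers. Its PBS mean was 5.49 times the Normal mean (log2 difference 1.54 ± 0.21, adjusted p = 0.00184), and HepLPC replicate 2 lay inside the PBS range (log2 difference -0.37 ± 0.21, adjusted p = 0.429). Ube2c, the ubiquitin-conjugating enzyme of that complex, measured 0.882, 2.51 and 2.11 RPKM in HepLPC livers, 2.65, 2.67 and 2.06 RPKM in PBS livers and 0.657, 0.361 and 0.183 RPKM in Normal livers. HepLPC replicate 1 was far below the other 2 HepLPC libraries, which lay inside the PBS range (log2 difference 1.31 ± 0.23, adjusted p = 0.00733 for PBS against Normal, and log2 difference -0.33 ± 0.23, adjusted p = 0.527 for HepLPC against PBS). Together with Cdk1, these genes had the highest HepLPC over Normal log2 differences, 1.31 ± 0.23 for Cdk1, 1.17 ± 0.21 for Cdc20 and 0.98 ± 0.23 for Ube2c, with adjusted p of 0.105, 0.108 and 0.227.

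All 5 cytokinesis genes rose in PBS against Normal livers in the second fit. Kif20a, a motor of the central spindle, measured 1.49, 2.07 and 1.65 RPKM in HepLPC livers, 2.82, 2.95 and 2.29 RPKM in PBS livers and 0.601, 0.879 and 1.07 RPKM in Normal livers. Prc1, which bundles the antiparallel microtubules of the central spindle, measured 0.784, 1.02 and 1.11 RPKM in HepLPC livers, 1.88, 2.83 and 1.53 RPKM in PBS livers and 0.194, 0.177 and 0.451 RPKM in Normal livers. Both had 3 separate groups (log2 difference 1.00 ± 0.15, adjusted p = 0.00289 for Kif20a and log2 difference 1.26 ± 0.17, adjusted p = 0.00208 for Prc1 in PBS against Normal). Kif23 and Racgap1 form centralspindlin, which recruits the exchange factor Ect2 to activate RhoA at the division plane. Ect2 measured 0.525, 0.512 and 0.498 RPKM in HepLPC livers, 1.14, 1.37 and 1.23 RPKM in PBS livers and 0.149, 0.0341 and 0.288 RPKM in Normal livers. Ect2 fell in HepLPC against PBS livers to 0.411 times the PBS mean (log2 difference -0.57 ± 0.12, adjusted p = 0.0418), with HepLPC libraries closely alike. It reached the filter only through the PBS libraries, and in the second fit its adjusted p in HepLPC against PBS was 0.0206. Kif23 measured 0.106, 0.316 and 0.285 RPKM in HepLPC livers, 0.425, 0.848 and 0.649 RPKM in PBS livers and 0.175, 0.0401 and 0.149 RPKM in Normal livers. Racgap1 measured 0.134, 0.0335 and 0.0372 RPKM in HepLPC livers, 0.200, 0.345 and 0.344 RPKM in PBS livers and 0.0162, 0.0297 and 0.0302 RPKM in Normal livers. For Kif23, HepLPC and Normal values overlapped, while for Racgap1 HepLPC replicates 2 and 3, with 2 reads each, lay just above the Normal libraries and HepLPC replicate 1, with 8 reads, further above them. Racgap1 had between 1 and 22 reads in a library and fell in HepLPC against PBS livers in the second fit (log2 difference -0.28 ± 0.05, adjusted p = 0.0364), a call lost in 14 of 18 alternative settings. Its adjusted p with 1 library left out lay between 0.00886 and 0.115, passing only without PBS replicate 1, and that of Ect2 lay between 0.0542 and 0.142. Kif23 did not pass there (log2 difference -0.41 ± 0.11, adjusted p = 0.0933), except without PBS replicate 1 (adjusted p = 0.0320). The Kif23 rise in PBS against Normal livers (log2 difference 0.54 ± 0.11, adjusted p = 0.0178) was lost without Normal replicates 2 or 3 or PBS replicate 3, at an adjusted p of up to 0.0755.

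PBS replicate 1 and HepLPC replicate 2 departed from the other libraries by gene length, also among these 32 genes. Gene model lengths recovered from the RPKM values ran from 616 bases for Cks2 to 10246 bases for Mki67. The deviation of a library from its group mean was correlated with length over the 32 genes (Spearman, a description across genes) at -0.63 for HepLPC replicate 2 and -0.74 for PBS replicate 1. In the other 7 libraries the same correlation lay between -0.18 and 0.65. HepLPC replicate 2 was the highest of its group in 11 of the 16 shorter genes and in 3 of the 16 longer ones. The HepLPC over PBS ratio of means had a median of 0.597 in the 16 shorter genes and of 0.483 in the 16 longer genes. Of the 11 genes in which HepLPC and PBS values overlapped, 7 were among the shorter. Without those 2 libraries, every HepLPC value lay below every PBS value in 29 of the 32 genes, with Cks2, Birc5 and Ube2c as the exceptions, against 40.0% of all genes, groups of 2 libraries being apart more often than groups of 3. The fit without them called 1 of the 23 filtered genes lower in HepLPC than in PBS livers, Bub1, against 3.27% of all filtered genes. With the length trend removed, 5 of the 23 filtered genes were called lower in HepLPC than in PBS livers, namely Cdk1, Mki67, Nusap1, Bub1 and Ect2, against 4.67% of all filtered genes.

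**Figure D3:**
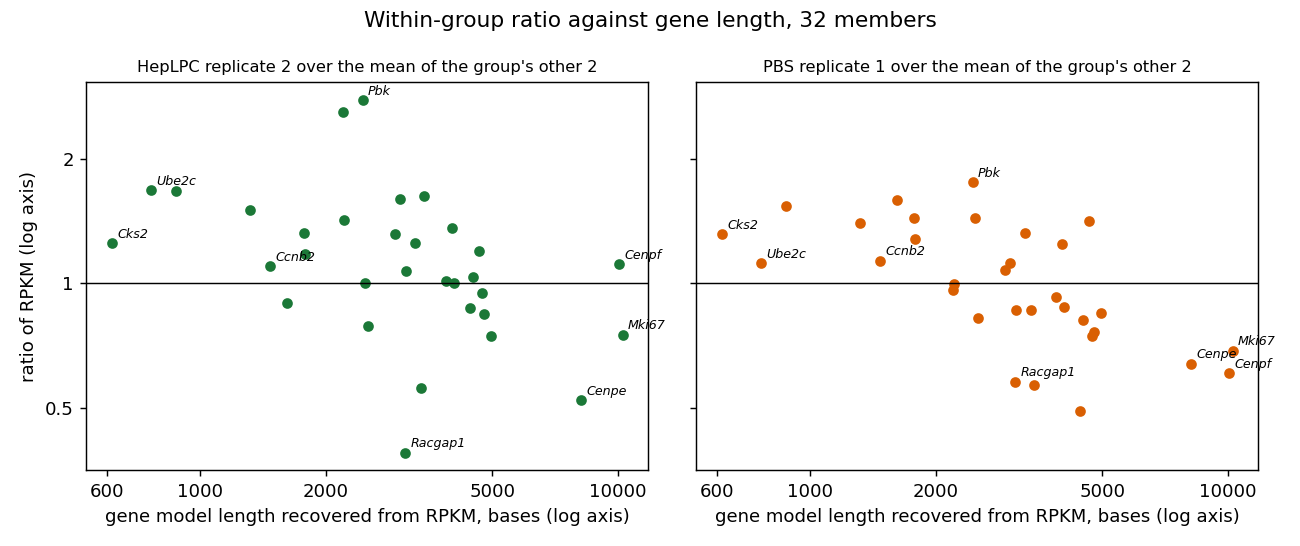
RPKM of HepLPC replicate 2 and of PBS replicate 1, each divided by the mean of the other 2 libraries of its group, against recovered gene model length (both axes log), 1 point per gene. In the HepLPC panel 13 of the 16 shorter and 9 of the 16 longer genes lie above a ratio of 1 (medians 1.32 and 1.01), and in the PBS panel 12 of the 16 shorter and 3 of the 16 longer (medians 1.21 and 0.832).

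Other genes of cell division were counted in lists chosen by role. Of 58 other mitosis genes, 38 rose in PBS against Normal livers in the second fit and 11 of the 15 that passed the filter, against 8.88% of all genes and 10.4% of filtered genes, with a median log2 difference of 0.52 over the 58. Examples are the condensin subunit Smc4 (log2 difference 1.10 ± 0.12, adjusted p = 0.000718) and the spindle motor Kifc1 (log2 difference 1.09 ± 0.13, adjusted p = 0.000984). The hyaluronan receptor and spindle protein Hmmr rose as well (log2 difference 1.16 ± 0.15, adjusted p = 0.00182), as did the cytoskeleton-associated protein Ckap2 (log2 difference 1.23 ± 0.17, adjusted p = 0.00192). Kifc1 reached 1 RPKM only in the 3 PBS libraries, and Hmmr and Ckap2 in these and 1 HepLPC library. Their passing the filter thus required high PBS values, and the filtered count of this list is limited in the same way. In HepLPC against PBS livers 6 of the 58 fell in the second fit, against 2.52% of all genes, and 1 of the 15 filtered genes, against 2.93% of all filtered genes. That gene was Arhgap11a, a RhoA regulator of cytokinesis (log2 difference -0.57 ± 0.12, adjusted p = 0.0382). In HepLPC against Normal livers 0 of the 15 were called.

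The subunits of cohesin and of the anaphase-promoting complex, which many non-dividing cells also express, summed to 211.8 to 223.0 RPKM in HepLPC, 234.7 to 261.2 RPKM in PBS and 197.5 to 210.2 RPKM in Normal livers. Of these 24 genes 1, Anapc2, rose in PBS against Normal livers (log2 difference 0.52 ± 0.13, adjusted p = 0.0316), against 10.4% of all filtered genes. In HepLPC against PBS and in HepLPC against Normal 0 were called. Their median log2 difference in PBS against Normal livers was 0.25, against 0.18 for all filtered genes. Of 18 cell cycle arrest genes 17 were in the files and 13 passed the filter. Of the 13, 1 rose in PBS against Normal livers, against 10.4% of all filtered genes. In HepLPC against PBS livers 1 of the 13 fell, against 2.93% of all filtered genes. With no filter, 3 of the 17 rose in PBS against Normal livers, against 8.88% of all genes. Their median log2 difference there was 0.19, against 0.09 for all genes. In HepLPC against PBS livers 1 of the 17 fell with no filter, against 2.52% of all genes. Cdkn2c, an inhibitor of the G1 cyclin-dependent kinases, rose in PBS against Normal livers (log2 difference 1.27 ± 0.27, adjusted p = 0.0181). Gadd45a, a stress-induced growth arrest gene, fell in HepLPC against PBS livers (log2 difference -0.85 ± 0.16, adjusted p = 0.0287), where it measured 8.83, 8.60 and 8.48 RPKM in HepLPC, 14.6, 16.8 and 17.7 RPKM in PBS and 11.7, 18.4 and 16.9 RPKM in Normal livers, the last 2 overlapping. The arrest genes as a list summed to 213.8 to 248.9 RPKM in HepLPC, 225.8 to 269.2 RPKM in PBS and 246.3 to 292.2 RPKM in Normal livers, ranges that overlapped.

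**Figure D4:**
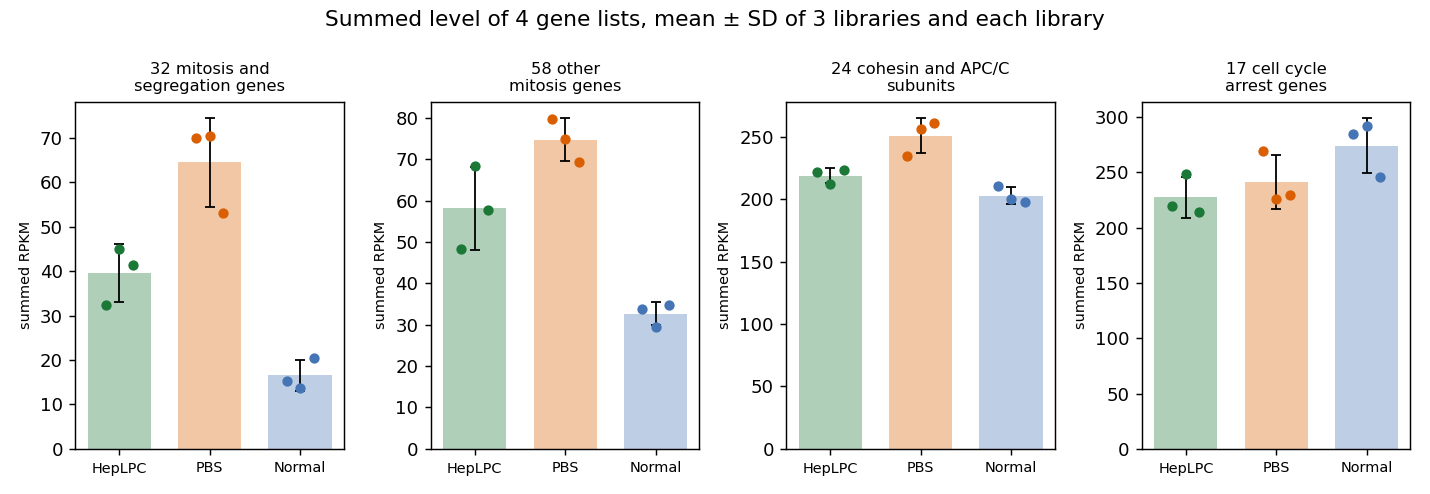
Summed RPKM of 4 gene lists in each library (points), with the group mean as a bar and its SD as a line, HepLPC left of PBS and PBS left of Normal. For the 32 mitosis and segregation genes the 3 HepLPC sums (32.3 to 45.0) lie between the PBS sums (53.0 to 70.3) and the Normal sums (13.8 to 20.5). The sums of the other mitosis genes and of the cohesin and APC/C (anaphase-promoting complex) subunits keep the same order without overlap, and the sums of the arrest genes overlap.

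Markers of several liver cell types moved in the same comparisons. Of all filtered genes, 10.4% were higher in PBS than in Normal livers and 2.93% lower in HepLPC than in PBS livers. Bile duct markers summed to 10.4 to 20.1 RPKM in HepLPC, 50.4 to 178.0 RPKM in PBS and 8.88 to 10.5 RPKM in Normal livers. The 6 of the 7 that passed the filter all rose in PBS against Normal and fell in HepLPC against PBS livers. The 3 PBS libraries alone can meet the filter, which can favour genes that are high there. With no filter, 6 of the 7 markers rose and 5 of the 7 fell, against 8.88% and 2.52% of all genes. Of these defining markers, Spp1 was at 0 in Normal replicate 1 and Krt7 in Normal replicate 3. Macrophage markers summed to 135.3 to 194.0 RPKM in HepLPC, 246.7 to 353.5 RPKM in PBS and 120.6 to 153.1 RPKM in Normal livers, with 2 of 7 higher in PBS than in Normal livers, Gpnmb and Lyz2, and 2 of 7 lower in HepLPC than in PBS livers. Stellate and myofibroblast markers summed to 23.1 to 26.7 RPKM in HepLPC, 31.5 to 52.8 RPKM in PBS and 14.4 to 19.9 RPKM in Normal livers, with 4 of 6 higher in PBS than in Normal livers and 1 of 6, Col1a1, lower in HepLPC than in PBS livers. Of the red cell precursor markers 2 passed the filter, of which 1, Tfrc, was higher in PBS than in Normal livers and the other did not rise. With no filter, 1 of the 5 was called, and their median log2 difference was 0.023, against 0.09 for all genes. The 5 summed to 17.3 to 27.7 RPKM in HepLPC, 27.6 to 36.4 RPKM in PBS and 14.5 to 27.2 RPKM in Normal livers. The PBS sums thus lay above the Normal sums and overlapped the HepLPC sums. Hepatocyte, endothelial and lymphocyte markers that passed the filter (7, 5 and 4 genes) had 0 called in any of the 3 comparisons. Lymphocyte markers summed to 9.48 to 16.7 RPKM in HepLPC, 14.3 to 18.2 RPKM in PBS and 9.99 to 12.4 RPKM in Normal livers, PBS above Normal without overlap. Endothelial sums overlapped between all groups, at 55.2 to 66.3 RPKM in HepLPC, 63.8 to 78.4 RPKM in PBS and 61.7 to 67.5 RPKM in Normal livers. Hepatocyte markers, which define the labelled tissue, summed to between 61940 and 86920 RPKM in every library. The part of these cell types in the levels of the mitosis genes was not tested.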

How the data were processed

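RNA sequencing of whole rat liver was deposited as 9 tables, 3 per group, of 40154 gene rows, whose values are the authors' RPKM, per the file headers. Per the submitters' processing notes, HISAT2 and StringTie were used, with hg19 as the build, which is human, while the rows carry rat symbols. The build is therefore uncertain.

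Whole reads and gene lengths were recovered from the steps of the RPKM values, within 0.01 read, for 20957 of 20959 genes above 0 in 3 libraries. On simulated data 1902 of 1921 genes were recovered exactly.

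Groups and replicate numbers came from the sample titles. Differences were tested with limma 3.58.1 in R 4.3.3 (lmFit, then eBayes with trend = TRUE, 2-sided, 6 residual degrees of freedom) on all 9 libraries. Genes were called at an adjusted p under 0.05.

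The 32 genes, the lists and the tests were chosen with earlier results of these data known. Library values are given for Mki67, Cdk1, the 2 genes of each role with the highest mean, genes called in HepLPC against PBS and genes under the filter, and Ccnb1 was added after its values were seen. From other lists at most 4 genes per comparison are named, called genes first. Alternatives covered scaling, pseudocount, filter, length, weights, the libraries fitted, a replicate block and each library left out.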

Additional observations from a re-analysis of the deposited data

How the results depend on the processing

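In PBS against Normal, quantile normalization left 12 of the 23 filtered and 17 of the 32 genes called. Leaving out 1 library at a time left 19 to 23 filtered genes called, and 21 to 32 in the fit with no filter. Over all genes the count for this comparison, 1262 (1157 higher and 105 lower), became 806 after median-of-ratios scaling (530 higher and 276 lower), 714 after quantile normalization (492 higher and 222 lower), 1992 with the length trend removed, 3168 without the 2 length-trend libraries, 2016 with no filter, and 562 to 1809 with 1 library left out.

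In HepLPC against PBS, the 2 filtered genes called became 0 with a pseudocount of 0.1, with median-of-ratios scaling, with quantile normalization and with only the 6 libraries compared. A filter on a mean of 1 RPKM called 0 of the 16 genes it kept. Bub1 and Ect2, with means of 0.728 and 0.638 RPKM over the 9 libraries, were not tested there. The 2 genes called became 5 with the length trend removed, 5 with no filter, 1 without the 2 length-trend libraries, and 0 to 3 with 1 library left out. In the fit with no filter, the 5 genes called became 1 with a pseudocount of 0.1, 1 with median-of-ratios scaling, 0 with quantile normalization, 3 with voom weights, 3 with no mean-variance trend, 0 with 6 libraries, 3 without the 2 length-trend libraries and 0 to 7 with 1 library left out. Over all genes 341 (15 higher and 326 lower) became 181 (23 higher and 158 lower), 213 (32 higher and 181 lower), 545 and 549 with median-of-ratios scaling, quantile normalization, the length trend removed and no filter, 86 with 6 libraries, and 90 to 398 with 1 library left out. In HepLPC against Normal 0 of the 32 genes were called in any setting run, and the 9 genes called overall became 3 with quantile normalization, 4 with the length trend removed, 0 with voom weights, 16 without the 2 length-trend libraries, 2 with the filter on the mean, 3 with no filter and 1 to 14 with 1 library left out. The causes of these shifts were not tested. No call of the 32 genes changed sign in the settings run.

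Libraries with the same replicate number did not deviate together (Pearson r between -0.41 and 0.31 across filtered genes), so the numbers were not taken to pair the samples. With a replicate block, 21 of 23 filtered and 28 of 32 genes were called in PBS against Normal, 0 and 0 in HepLPC against PBS, and over all genes 787, 198 and 1 in PBS against Normal, HepLPC against PBS and HepLPC against Normal. Few reads limit single genes most in Normal livers, where 32 of 96 values rested on under 10 reads. The Normal libraries were not shallower than the others, at 19.9 to 21.8 M recovered reads.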
